A study of Mus musculus with 8 samples.

Results

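The 2 mature microRNAs cut from the mouse miR-21a hairpin, miR-21a-5p and miR-21a-3p, were measured in kidneys of mice with endotoxin-induced acute kidney injury and of sham mice. They were taken by the names mmu-miR-21a-5p and mmu-miR-21a-3p from the non-control spots of Agilent mouse miRNA arrays, and are 2 of the 1881 miRNAs, 6 of the 4415 probes and 60 of the 56430 non-control spots of each array. The LPS group comprised 4 samples (replicates 6, 10, 11 and 12) from mice injected into the peritoneal cavity with lipopolysaccharide (LPS), the endotoxin of Gram-negative bacteria, at 10 µg per g of body weight. The sham group comprised 4 samples (replicates 5, 6, 7 and 8) from mice injected with normal saline. Kidneys were collected after 24 h in the LPS group, and the sham model differed from it in the injected fluid. For each array, RNA came from 30 mg of kidney tissue, and 100 ng of total RNA was labelled with the dye Cy3. Strain, age and sex are not given in the sources used here, and the labels do not state that each sample is its own animal. The p-values therefore measure the spread between these samples, which may be technical. The tissue is whole kidney, in which fewer cells of a type and less RNA per cell cannot be told apart.

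MiR-21 is a microRNA, a short RNA that guides Argonaute proteins to complementary sites in messenger RNAs and lowers their translation or stability. The pairing is set mainly by the seed, the bases close to the 5′ end. Drosha and Dicer cut the hairpin to a duplex, from which the 5p strand is the one usually kept as the guide, while the 3p strand, known as the passenger or star strand, is mostly degraded. A known target of miR-21-5p is Pdcd4, a tumour suppressor and modulator of inflammatory signalling. Transcription of the miR-21 gene is known to be driven by NF-κB, AP-1 and STAT3, and in kidney it is known as a miRNA that rises after ischaemic, toxic and fibrotic injury.

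The hairpin is shown with both mature arms in capitals, because everything measured here comes from these stretches of 1 transcript. In the mature arms the capitals mark the seed (bases 2 to 8). Sequences are from RefSeq (GRCm38.p6).
Mir21a hairpin: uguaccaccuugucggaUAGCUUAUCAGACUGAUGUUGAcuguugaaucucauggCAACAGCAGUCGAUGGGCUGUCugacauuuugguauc
miR-21a-5p: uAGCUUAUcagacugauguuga
miR-21a-3p: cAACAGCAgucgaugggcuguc
The hairpin of 92 bases lies on the minus strand at chr11:86584067-86584158, within the span of Vmp1 (chr11:86583858-86683836, same strand), which encodes a membrane protein of autophagy. The 5p arm takes hairpin bases 18 to 39 (chr11:86584120-86584141), the 3p arm bases 56 to 77 (chr11:86584082-86584103), and 16 bases lie between them. Both arms are 22 bases long. Their seeds differ, AGCUUAU in the 5p arm and AACAGCA in the 3p arm.

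The probes are shown because the agreement between them is part of the result. Each is the DNA complement of the 3′ side of its arm, and the capitals mark the bases by which a probe extends beyond the shortest one for that arm.
miR-21a-5p 19-nt probe: tcaacatcagtctgataag
miR-21a-5p 20-nt probe: tcaacatcagtctgataagC
miR-21a-3p 12-nt probe: gacagcccatcg
miR-21a-3p 13-nt probe: gacagcccatcgA
miR-21a-3p 14-nt probe: gacagcccatcgAC
miR-21a-3p 15-nt probe: gacagcccatcgACT
The 2 probes for the 5p arm pair with bases 4 to 22 and 3 to 22, and the 4 probes for the 3p arm with bases 11, 10, 9 or 8 to 22. The array design places the 3p probes at higher positions of chromosome 11 than the 5p probes, the opposite of their order on the minus strand in RefSeq, so its probe positions are not used here.

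Both arms were higher in LPS kidneys than in sham kidneys on every array. MiR-21a-5p, the guide strand, was 4.65-fold higher. MiR-21a-3p, the passenger strand, was well above background on all LPS arrays and on no sham array. With the scanner's background-subtracted signal it was at least 17.6-fold higher by the brightest probe. Under other background handling the fitted fold of this probe was 4.72 to 9.94. In the set of 338 miRNAs that were detected throughout 1 group or both, and were therefore tested, the 3p arm had the largest difference and the 5p arm the fourth largest with the scanner's background-subtracted signal. With normexp and an offset of 50, a model-based background correction, the 5p arm was in place 1 and the 3p arm in place 3, and with no background subtraction they were in places 2 and 3.

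The level of a miRNA is given as log2 of the summed signal of its probes, divided by the array's 75th percentile. On this scale miR-21a-5p was at 6.63, 6.88, 6.70 and 6.72 on LPS arrays 6, 10, 11 and 12, against 4.37, 4.61, 4.55 and 4.54 on sham arrays 5, 6, 7 and 8. The groups did not overlap, and the gap between them was many times the spread within either. The means were 6.73 ± 0.11 in LPS kidneys and 4.52 ± 0.10 in sham kidneys (SD, n = 4 each), a log2 difference of 2.22 ± 0.08 (SE). The fold of 4.65 had a 95% confidence interval of 4.12 to 5.24, and the adjusted p was 1.95e-07 (limma, Benjamini-Hochberg over the 338 miRNAs). Before scaling, the summed signal was 50387 to 63465 intensity units on LPS arrays and 9970 to 11947 on sham arrays. Of all tested miRNAs, 14.8% were called higher at an adjusted p under 0.05 and 12.1% were higher without overlap between the groups, and the median difference was -0.08.

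MiR-21a-3p was at 0.47, 0.53, 0.36 and 0.48 on LPS arrays 6, 10, 11 and 12. Sums under a floor of -4.68, the median over the 8 arrays of each array's smallest detected sum, were raised to it. MiR-21a-3p was at this floor on sham arrays 5, 6 and 7, and at -4.56, also without detection, on sham array 8. No sham array therefore gave more than an upper limit for this arm, and the groups did not overlap. The means were 0.46 ± 0.07 in LPS kidneys and -4.65 ± 0.06 in sham kidneys (SD, n = 4 each). The fitted log2 difference of 5.10 ± 0.06 (SE, limma adjusted p = 4.16e-11) rests on the floor, as do its SE and p, and is not an exact fold. The firmer value is the bound. It sets the brightest probe on LPS arrays against, for each sham array, the lowest probe signal well above background or the probe's own signal where higher, and gives at least 17.6-fold (4.14 on the log2 scale). This holds for the scanner's background-subtracted signal. Under other background handling the fitted difference of the brightest probe was 2.24 with normexp and an offset of 50, 2.64 with no background subtraction and 3.31 with normexp and no offset.

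**Figure D1:**
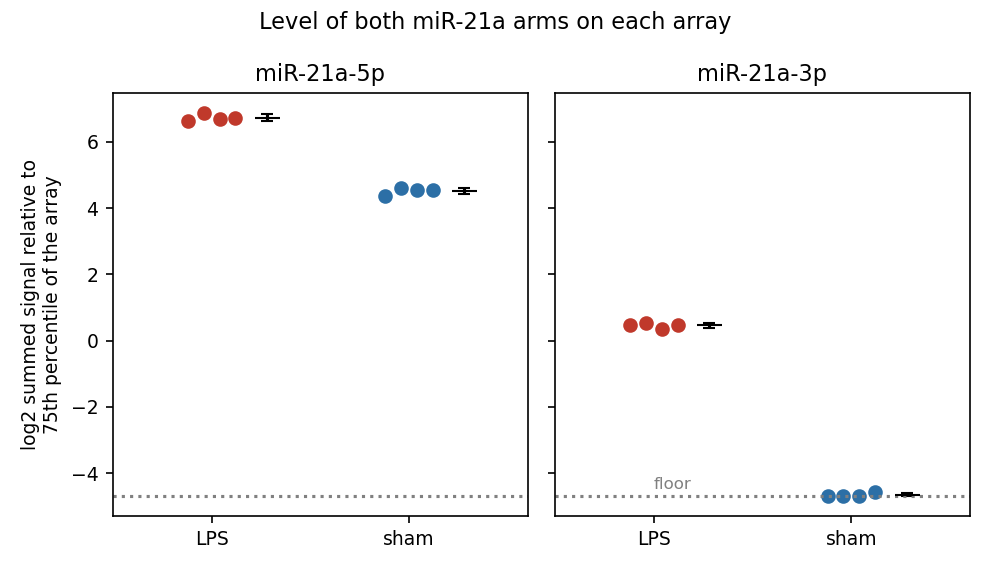
Log2 level (summed probe signal over the array's 75th percentile) of miR-21a-5p (left) and miR-21a-3p (right) on the 4 LPS arrays and the 4 sham arrays, 1 point per array, with the mean and SD of each group. The LPS points for the 5p arm lie between 6.63 and 6.88 and the sham points between 4.37 and 4.61. The LPS points for the 3p arm lie between 0.36 and 0.53, and the sham points lie at or just above the dotted floor at -4.68.

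The plot of levels by array shows how close the arrays of a group were to each other relative to the distance between the groups. The spots tell the same. Of the spots for the 3p arm without an outlier flag, 111 of 111 were well above background on LPS arrays and 1 of 114 (0.877%) on sham arrays. For the 5p arm the counts were 120 of 120 on LPS arrays and 116 of 116 on sham arrays, so that only the 3p arm crossed the detection limit between the groups.

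Crossing that limit was uncommon on these arrays. In all, 6 miRNAs were detected on all 4 LPS arrays and on no sham array, and 0 the other way round. Beside miR-21a-3p at 17.6-fold or more, the bounds of the brightest probes were at least 2.06-fold for miR-29b-1-5p, 1.70 for miR-7040-5p, 1.43 for miR-669n, 1.35 for miR-3091-5p and 1.28 for miR-182-5p. All these bounds are for the scanner's background-subtracted signal. MiR-29b-1-5p is likewise the less abundant strand of its hairpin.

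All 6 probes had higher signals on LPS than on sham arrays, without overlap, and all 6 passed the test over the 633 probes detected throughout 1 group or both. Of all tested probes, 14.2% were called higher at an adjusted p under 0.05 and 12.6% were higher without overlap. For the 5p arm, the 20-nt probe had a mean processed signal of 31964 ± 3300 intensity units in LPS kidneys and 6918 ± 554 in sham kidneys (SD, n = 4 each), a log2 difference of 2.13 ± 0.08 (SE, limma adjusted p = 1.58e-07). The 19-nt probe gave 23232 ± 2524 in LPS kidneys and 4326 ± 321 in sham kidneys, a log2 difference of 2.35 ± 0.08 (limma adjusted p = 9.98e-08). The separation held for single spots. The dimmest LPS spot of the 20-nt probe had 25798 units and its brightest sham spot 7947, and for the 19-nt probe the dimmest LPS spot had 19799 units and the brightest sham spot 4651. Within an array the spots of these probes varied by 1.30 to 6.11% (coefficient of variation), and no non-control spot on any array was saturated.

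For the 3p arm, the 15-nt probe was the brightest, with 342, 372, 326 and 325 units on LPS arrays 6, 10, 11 and 12, against 12.4, 8.97, 11.7 and 14.3 units on sham arrays 5, 6, 7 and 8. The sham values lay under the lowest signal of any detected probe on their arrays, which was 16.6 to 20.4 units. Before any background subtraction the same probe had 367 to 417 units on LPS arrays and 54.2 to 58.1 on sham arrays, so the difference was present in the unsubtracted signal too. The 14-nt probe averaged 249 ± 15.6 units in LPS kidneys and 6.41 ± 1.26 in sham kidneys, the 13-nt probe 82.9 ± 3.79 and 0.163 ± 1.18, and the 12-nt probe 38.2 ± 4.56 and -1.16 ± 1.26 (SD, n = 4 each). Each of the 4 probes was detected on all LPS arrays and on no sham array, and each added base went with a higher LPS signal. The bounds were at least 17.6-fold for the 15-nt probe, 12.9-fold for the 14-nt probe, 4.28-fold for the 13-nt probe and 1.96-fold for the 12-nt probe. The fit over probes gave these 4 limma adjusted p from 1.03e-10 to 5.32e-05, with all their sham values at an assigned floor. Those p-values rest on the floor and do not test the bounds. Since the sham side is the detection limit for all 4 probes, the bounds follow the brightness of each probe on LPS arrays, and they do not show that the probes disagree.

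**Figure D2:**
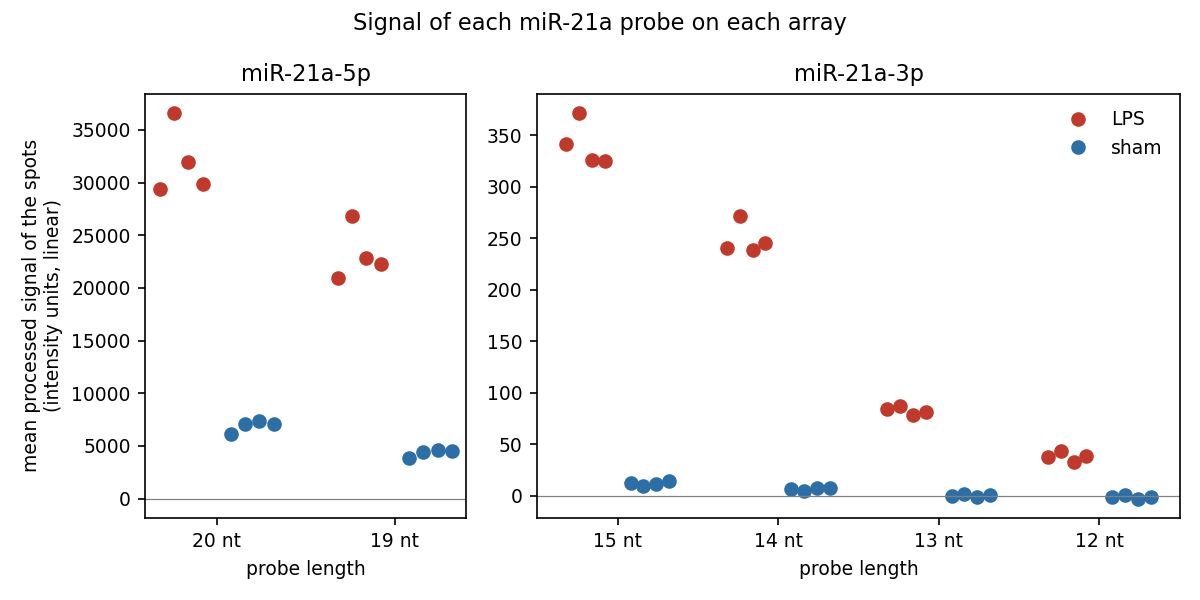
Mean processed signal (intensity units, linear axis) of each probe for miR-21a-5p (left) and miR-21a-3p (right), ordered by probe length in nucleotides (nt), 1 point per array. On every probe the 4 LPS points lie above the 4 sham points, at 29406 to 36629 against 6108 to 7365 units for the 20-nt probe of the 5p arm and 325 to 372 against 8.97 to 14.3 units for the 15-nt probe of the 3p arm.

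The plot of probe signals shows that the 5p probes kept a clear signal on sham arrays while the 3p probes lay near 0 there. Signals of different probes are not read as amounts, since each pairs with its RNA at its own strength.

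The 2 probes for the 5p arm agreed in direction and differed in size, and the difference between them was examined after these values had been seen. The log2 ratio of the 20-nt to the 19-nt probe was 0.49, 0.45, 0.49 and 0.42 on LPS arrays 6, 10, 11 and 12, against 0.66, 0.70, 0.68 and 0.67 on sham arrays 5, 6, 7 and 8. The groups did not overlap. The mean was 0.46 ± 0.03 in LPS kidneys and 0.68 ± 0.02 in sham kidneys (SD, n = 4 each), so the ratio fell by 0.22 ± 0.02 (SE) on the log2 scale. The exact 2-sided permutation test over arrays gave p = 0.0286, the smallest that 4 against 4 arrays allow. The same ratio, longest over shortest probe, was fitted over the 232 miRNAs with probes of more than 1 length detected on all 8 arrays. In that fit the limma adjusted p was 3.63e-04. Of these miRNAs 3.02% were called lower, 5.17% were lower without overlap, and miR-21a-5p had the fourth most negative change, after miR-6931-5p, miR-8101 and miR-17-3p. Other ratios were called higher, with larger changes than that of miR-21a-5p for miR-155-5p (0.52), miR-712-5p (0.37) and miR-199a-5p (0.29). The change was thus among the larger ones but not the largest in size. The 20-nt probe differs from the 19-nt probe by the base that pairs with base 3 of the mature RNA. The fold for the 5p arm thus depended slightly on the probe, with log2 differences of 2.13 for the 20-nt and 2.35 for the 19-nt probe.

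**Figure D3:**
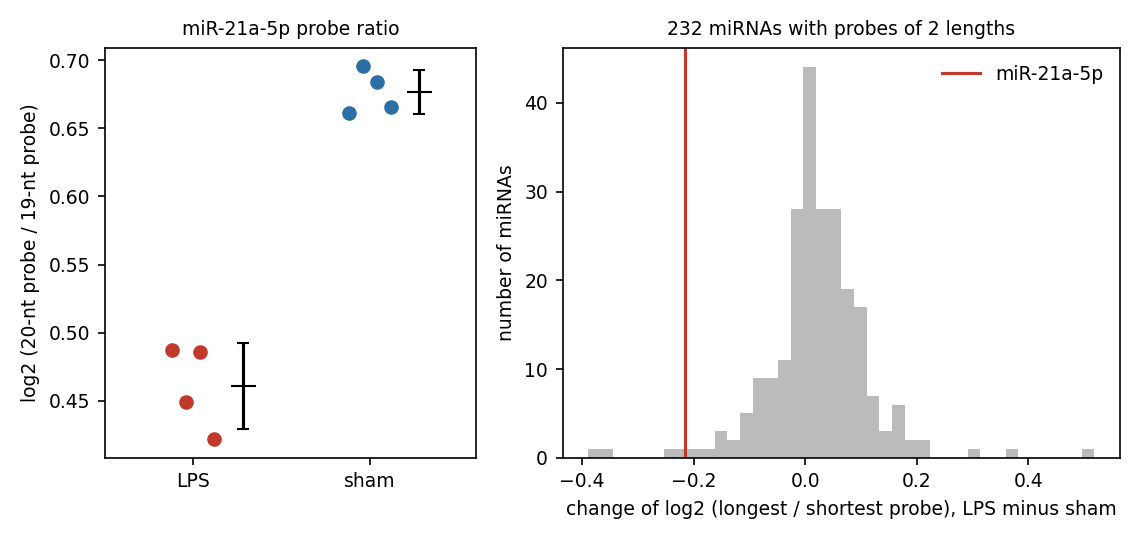
Left, log2 ratio of the 20-nt to the 19-nt probe for miR-21a-5p on each of the 4 LPS and 4 sham arrays. Right, histogram over 232 miRNAs of the change (LPS minus sham) in the log2 ratio of the longest to the shortest probe. The LPS points lie between 0.42 and 0.49 and the sham points between 0.66 and 0.70, and the red line marks miR-21a-5p at -0.22.

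The histogram of probe ratio changes places the 5p arm toward its negative end, while the median change over all 232 miRNAs was 0.018.

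The array also carries miR-21b and miR-21c, named as relatives of miR-21a. They are shown because their similarity to miR-21a-5p bears on what its probes can pick up. Capitals mark the bases that differ from miR-21a-5p at the same position.
miR-21b: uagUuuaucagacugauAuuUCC
miR-21c: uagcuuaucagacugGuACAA
MiR-21c has the same seed as miR-21a-5p and differs by A16G, G18A, U19C, U20A and G21A, where the base of miR-21a-5p comes first and positions count from 1 at the 5′ end. MiR-21b differs by C4U in the seed and by G18A, G21U and A22C, and has 1 more base at its 3′ end. Neither was detected on any array. For miR-21b, 0 of 120 spots on LPS arrays and 0 of 119 on sham arrays were well above background, and for miR-21c 0 of 116 and 0 of 119, with array means of each probe between -2.09 and 2.86 units. The probes for these relatives share runs of 12 or 13 bases with those for miR-21a-5p, and on LPS arrays they stayed at background beside a 5p signal of 20980 to 36629 units per probe. No other mature miRNA in the RefSeq table shares the 3p seed.

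The next comparison asks whether both arms changed by the same factor. The log2 ratio of the 5p to the 3p level was 6.16, 6.35, 6.34 and 6.24 on LPS arrays 6, 10, 11 and 12, against 9.05, 9.28, 9.23 and 9.09 on sham arrays 5, 6, 7 and 8. The groups did not overlap, with means of 6.27 ± 0.09 in LPS kidneys and 9.16 ± 0.11 in sham kidneys (SD, n = 4 each). The change was -2.89 ± 0.07 (SE), with a limma adjusted p of 2.90e-09 over the 35 hairpins with both arms tested and an exact 2-sided permutation p of 0.0286. The 3p arm was detected on no sham array, so the sham ratios are the 5p level minus an assigned floor, and the size and p of this change follow that floor. With the floor 1 log2 unit higher the change was -1.92. This lower ratio in LPS kidneys held for the scanner software's background-subtracted signal, but with normexp and an offset of 50 the change was 0.51, and with no background subtraction it was 0.089 (adjusted p = 3.10e-04 and 0.474 by limma). The brightest probe of each arm, with the 3p arm at its detection limit on sham arrays, gave 6.43, 6.62, 6.62 and 6.52 on LPS arrays 6, 10, 11 and 12, against at least 8.23, 8.57, 8.68 and 8.74 on sham arrays 5, 6, 7 and 8. On that scale the 3p arm gained at least 2.01 log2 units on the 5p arm. The exact permutation p of 0.0286 rests on the detection limit assigned on sham arrays and does not test this minimum. This minimum, too, holds only for the scanner's background-subtracted signal. By the brightest probes the fitted change was -0.11 with normexp and an offset of 50 (limma adjusted p = 0.256). It was -0.51 with no background subtraction and -1.19 with normexp and no offset. The ratio sets different probes against each other, so its change is read here and its height is not.

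Of the 35 hairpins, 34.3% had a changed arm ratio at an adjusted p under 0.05, 22.9% a lower and 11.4% a higher one, and for 17.1% the ratio was lower without overlap. The median absolute change was 0.14. With the scanner's background-subtracted signal miR-21a had the most negative change. It stood at place 34 of 35 with normexp and an offset of 50, 27 with no background subtraction and 11 with normexp, an offset of 50 and the brightest probe. Next came miR-149 at -1.46 (limma adjusted p = 0.00121) and miR-199a at -0.41 (adjusted p = 4.67e-05). At the other end stood miR-466i at 1.23 (limma adjusted p = 4.94e-05), miR-1897 at 0.36 (adjusted p = 0.328) and miR-139 at 0.28 (adjusted p = 0.0759). The ratio moved by more than 1 log2 unit for 3 hairpins, miR-21a, miR-149 and miR-466i. The 3p arm of miR-149 was detected on only 2 sham arrays, and its change ran from -1.64 to -0.34 over the alternatives.

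**Figure D4:**
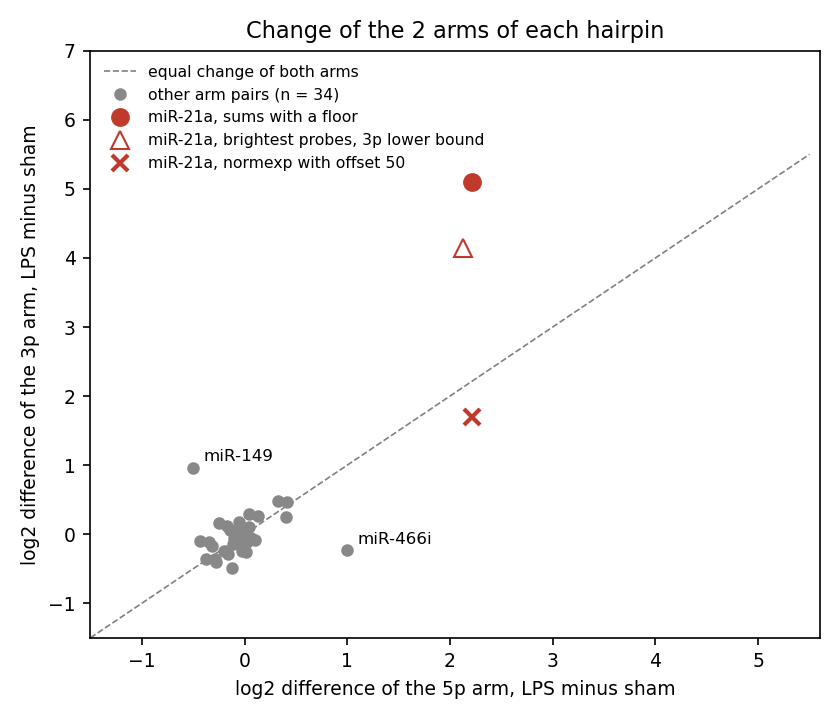
Log2 difference (LPS minus sham) of the 3p arm against that of the 5p arm for the 35 hairpins with both arms tested, with a dashed line where both arms change equally. MiR-21a lies above the line with floored sums (2.22 for the 5p and 5.10 for the 3p arm) and with the 3p arm at its bound (2.13 and 4.14 for the brightest probes), and below it under normexp with an offset of 50 (cross).

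The plot of both arms shows that for miR-21a each arm was higher in LPS kidneys under every version drawn, while the side of the line on which the hairpin lay depended on the background correction.

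By summed signal, miR-21a-5p took place 3 of the 338 tested miRNAs on every LPS array, behind miR-6366 and miR-3963, and 11th to 13th on the sham arrays. MiR-21a-3p stood 82nd to 86th on LPS arrays. These places order signals, which also depend on the probes of each miRNA. In the order of log2 differences, miR-144-3p (2.46) and miR-451a (2.43) stood between the arms and miR-3077-5p (2.18) just below the 5p arm. The erythroid miR-144-3p and miR-451a varied so much within groups that LPS and sham arrays overlapped (limma adjusted p = 0.0235 and 0.0285).

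**Figure D5:**
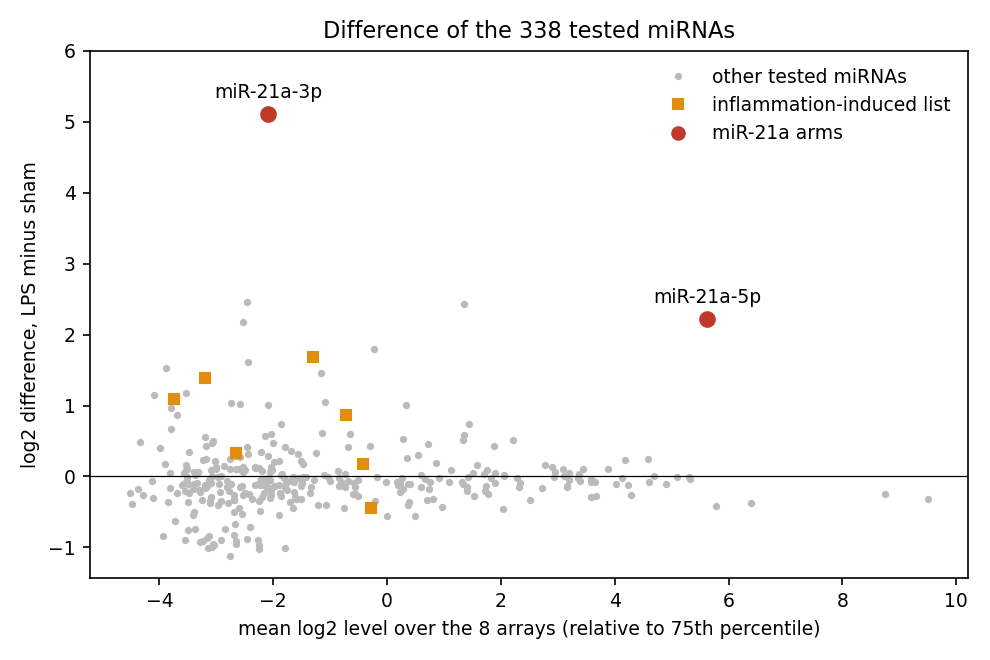
Log2 difference (LPS minus sham) of the 338 tested miRNAs against their mean log2 level over the 8 arrays, with the miR-21a arms in red and the 7 tested members of the list of inflammation-induced miRNAs in orange. MiR-21a-3p lies at 5.10 and miR-21a-5p at 2.22.

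The plot of all differences shows that no other tested miRNA with a mean level as high as that of miR-21a-5p differed by more than 1 log2 unit. Few tested miRNAs had so high a mean level. The likeness of other profiles to miR-21a-5p was measured as the root mean square of the log2 differences over the 8 arrays, after each profile was centred on its sham mean, for which smaller is closer. The closest were miR-3077-5p at 0.316, miR-155-5p at 0.380, miR-3082-5p at 0.486, miR-6931-5p at 0.517 and miR-7040-5p at 0.595, against a median of 1.64 over the 336 tested miRNAs other than the miR-21a arms. The 3p arm was at 2.04 from the 5p arm, a distance that rests on the floor, as does its larger difference. With normexp and an offset of 50 the difference was 1.70 for the 3p arm and 2.21 for the 5p arm. With no background subtraction these were 2.13 and 2.21. The measure mostly reflects the size of the LPS difference, which was 2.18 ± 0.22 (SE) for miR-3077-5p, 1.68 ± 0.08 for miR-155-5p, 1.61 ± 0.13 for miR-3082-5p and 1.80 ± 0.26 for miR-6931-5p. Each of these 4 was called higher (limma adjusted p from 2.25e-06 to 0.00142) without overlap between the groups. Of all tested miRNAs 14.8% were called higher and 12.1% were higher without overlap. The 4 were picked by likeness to a rising profile on the same arrays, so their calls are no separate result. Over the alternatives the differences ran from 0.83 to 2.26 for miR-3077-5p and 0.99 to 1.84 for miR-155-5p. They ran from 0.63 to 2.00 for miR-3082-5p and 1.31 to 1.96 for miR-6931-5p. MiR-7040-5p was detected on no sham array, so its likeness rests on the floor and its bound is the 1.70-fold given above. Its fitted difference of 1.52 ran from 0.23 to 7.32 over the alternatives and missed the threshold with the floor 1 log2 unit higher (0.57, limma adjusted p = 0.0661).

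Among miRNAs known to be induced by inflammatory signals, 7 of 14 listed were tested, 4 rose and 1 fell, where 14.8% of all tested miRNAs were called higher and 25.4% lower. The median log2 difference was 0.86 in the list and -0.08 over all tested miRNAs. MiR-155-5p, which promotes inflammatory signalling in macrophages and lymphocytes, rose by 1.68 (limma adjusted p = 2.25e-06). MiR-132-3p rose by 1.39 (limma adjusted p = 7.30e-05) and miR-146b-5p by 1.09 (limma adjusted p = 8.79e-05). Both were detected on all 4 LPS arrays and on only 2 sham arrays, so these sizes depend in part on the floor. The myeloid miR-223-3p rose by 0.86 (limma adjusted p = 3.03e-04). MiR-212-3p, from the same cluster as miR-132, fell by 0.45 (limma adjusted p = 0.00166). MiR-146a-5p, a feedback inhibitor of Toll-like receptor signalling, differed by 0.18 (limma adjusted p = 0.166). The difference of miR-9-5p was 0.33 (limma adjusted p = 0.173). The other 7 listed miRNAs, which include the minor strands miR-155-3p, miR-146a-3p, miR-146b-3p, miR-132-5p and miR-212-5p, were detected on no array. The minor strand of miR-21a was detected on all 4 LPS arrays. This was not particular to miR-21a, since 35 hairpins had both arms tested, and both arms of miR-9 were detected on all arrays. All 4 that rose had smaller log2 differences than miR-21a-5p, a comparison of sizes that was not tested.

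Of 16 listed miRNAs linked to kidney injury and fibrosis, 14 were tested, 3 rose and 2 fell, with a median log2 difference of 0.03. The list's counts are near or under the shares over all tested miRNAs, 14.8% higher and 25.4% lower, and are no result about the list. MiR-18a-5p, a member of the miR-17-92 cluster, rose by 1.04 (limma adjusted p = 6.11e-05). MiR-29a-3p, which represses collagen messages, rose by 0.25 (limma adjusted p = 0.0308). MiR-192-5p, abundant in tubules, fell by 0.28 (limma adjusted p = 0.0277) and miR-199a-5p, of stromal cells, by 0.25 (limma adjusted p = 0.0309). MiR-29b-3p, which shares its seed with miR-29a-3p, rose by 0.23 (limma adjusted p = 0.0344). These 4 small differences missed the threshold under 8 to 15 of 32 alternatives, which include 8 fits without 1 array. Of those 8 fits, 1 to 4 kept the call, depending on the miRNA. Without any 1 array, 1 to 3 members of the list were called higher (1 without sham array 7 or 8, or without LPS array 10 or 12) and 0 to 2 lower (0 without sham array 6 or 7, or without LPS array 11 or 12, and 1 without sham array 5 or 8 or LPS array 6). Of the 14 tested, only miR-18a-5p differed by more than 1 log2 unit, as both miR-21a arms did. The difference of miR-18a-5p ran from 0.34 to 1.12 over the alternatives.

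MiR-21 is made by many cell types, including leukocytes, and levels of marker miRNAs are given beside it. Over all tested miRNAs 14.8% were called higher and 25.4% lower, and these shares moved with the scaling. The 6 leukocyte markers summed to 3.45 to 3.72 times the array's 75th percentile on LPS arrays and 2.26 to 3.12 times on sham arrays, with miR-155-5p and miR-223-3p rising, both also members of the inflammation-induced list. The other 4 did not pass the test, with log2 differences of 0.26 for miR-142a-3p, 0.13 for miR-142a-5p, -0.01 for miR-342-3p and -0.22 for miR-150-5p. The 2 tested erythroid markers of 3 listed rose, with sums of 2.05 to 13.8 on LPS arrays and 0.549 to 3.15 on sham arrays, and miR-486a-5p was detected on 2 arrays. Without sham array 6 or 7, or without LPS array 6, 11 or 12, 0 of the erythroid markers passed the threshold. Without sham array 5, 4 leukocyte markers did. Of the 7 kidney tubule markers 6 were tested, 0 rose and 3 fell, with sums of 61.6 to 71.0 on LPS arrays and 67.9 to 73.6 on sham arrays. Of the 4 smooth muscle and stromal markers 0 rose and 2 fell, with sums of 4.03 to 4.49 on LPS arrays and 4.003 to 4.77 on sham arrays, and neither of the 2 endothelial markers changed at an adjusted p under 0.05. The liver marker miR-122-5p and the tubule marker miR-215-5p were detected on no array. The part of these cells in the miR-21a difference was not tested.

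Over the whole series, 342 to 359 miRNAs were detected per LPS array and 336 to 375 per sham array, and the 75th percentile used for scaling was 8.95 to 9.07 on LPS arrays and 8.88 to 8.99 on sham arrays (log2 intensity). In all, 40.2% of the tested miRNAs were called changed, 14.8% higher and 25.4% lower, and this split depended on the scaling. It was 50 higher and 86 lower with the scaling used, 55 and 53 with the percentile taken over all probes, 57 and 49 with no scaling, 65 and 66 with cyclic loess, and 34 and 150 with scaling to the labelling spike-in probes. The last moved the median difference of all tested miRNAs to -0.23. Both miR-21a arms were called higher under each of these scalings. The 8 arrays lay on 1 slide, the LPS arrays in row 2 and the sham arrays in row 1, so row on the slide and treatment cannot be told apart.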

How the data were processed

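The authors deposited each array's scanner output. Its spot intensities were background-subtracted but, per the file headers, left unscaled between arrays. Agilent Feature Extraction 12.0.3.1 is listed in the submitters' processing notes. The authors' deposited ratio table, used as an alternative, gives 1 linear value per miRNA and array. For 383 miRNAs, the manufacturer's total signal times 1 factor per array and 1 per miRNA matched 100% of these values to 0.01 log2, and the origin of the factors stays unknown. Its column medians were 0.958, 0.960, 1.01 and 1.03 on LPS arrays 6, 10, 11 and 12, and 0.995, 1.06, 1.05 and 0.980 on sham arrays 5, 6, 7 and 8.

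Outlier spots were left out, spots averaged per probe, arrays divided by their 75th percentile over the 551 probes detected on all 8 arrays, and probes summed per miRNA, floored and log2-transformed. Detection required more than 50% of a probe's spots well above background. At the floor, spread between samples is hidden. Limma 3.58.1 in R 4.3.3 (lmFit, eBayes, 2-sided, Benjamini-Hochberg, threshold 0.05) compared 4 LPS with 4 sham arrays, without covariates, and was tested on simulated data. The number of arrays limits the precision. Named miRNAs are the arms, the 5 nearest profiles, relatives by seed or name, 3 arm pairs at each end, ranking neighbours, and up to 4 per list by smallest p. The other listed members with values, the miRNAs with a larger probe ratio change or signal than miR-21a-5p, and those detected only on LPS arrays were added after their values were seen. Members and lists were chosen with earlier results of these data known. Alternatives covered scaling, background, floor, probe summary, filter, variance model, slide column and leaving out arrays.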

Additional observations from a re-analysis of the deposited data

Results flagged for a closer look

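Among 42 groups of 4 arrays examined, 4 held an array set apart from the other 3 by Dixon's test, and chance alone gives about 2.10. MiR-21a-3p was at -4.56 on sham array 8, with sham arrays 5, 6 and 7 at the floor of -4.68. Its 13-nt probe was at -2.75 on LPS array 11, with the other LPS arrays between -2.62 and -2.60. MiR-7040-5p was at -4.57 on sham array 5, with the other sham arrays at the floor. MiR-199a-5p was at -0.55 on LPS array 10, with the other LPS arrays between -0.79 and -0.76. Each gap was small beside the LPS difference of the miR-21a arms, and that of 2 groups is set by the floor. For miR-199a-5p the gap was not small beside its own LPS difference of -0.25.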

How the results depend on the processing

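MiR-21a-5p was called higher under all 32 alternatives, by 2.07 to 2.33 log2 units, and by 2.17 to 2.25 when each array was left out. MiR-21a-3p was called higher under all 31 that gave a value, but the size ran from 1.70 (normexp with an offset of 50) to 8.79 (the deposited ratio table), and was 5.08 to 5.14 without single arrays. Its log2 bound was 3.996 to 4.21 over other scalings and spot summaries, without single arrays 4.08 to 4.20. The change of the arm ratio was 0.51 with normexp and an offset of 50 (limma adjusted p = 3.10e-04) and, in settings chosen after seeing the data, 0.089 with no background subtraction (adjusted p = 0.474) and -0.11 with normexp, an offset of 50 and the brightest probe (adjusted p = 0.256). Other added settings gave -0.84 with normexp and no offset, -1.19 with that and the brightest probe, and -0.51 with no subtraction and the brightest probe. Of the planned ones, the deposited table gave -6.54, the mean of logs over probes -0.60 and a floor 1 log2 unit higher -1.92. It was -2.93 to -2.85 without single arrays. The ratio of the 5p probes changed by -0.25 to -0.20 over 14 added settings, and by -0.22 to -0.20 without single arrays. The number of miRNAs changed, 136, was 60 with no filter, where over 50% of variances are 0 and the fit is unreliable, 80 with slide column as a block, and 85 to 152 without single arrays (85 without sham array 6, 88 without LPS array 12). The cause of these shifts was not tested. Requiring detection on all 8 arrays leaves out the 3p arm and its ratio. In the inflammation list 2 to 5 members rose and 1 fell, and in the kidney injury list 1 to 6 rose and 0 to 4 fell. No paired analysis was possible because the groups share only replicate number 6, and slide column joins places on the slide, not samples. Signals near background limit the 3p arm on sham arrays.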
